A study of Mus musculus with 12 samples.

Results

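Expression in the aortic root was compared with that in the aortic arch of wild-type male 129S6/SvEvTac (129) mice. These 6 arrays, 3 of the root and 3 of the arch, were chosen by their sample titles out of the 12 arrays of the series, and all 22180 genes measured by an array cluster with a single gene symbol were described. The other 6 arrays held arch RNA of wild-type B6 (C57BL/6) and DBA (DBA/2J) males, 3 each. All mice were 2 to 5 months old, ate a regular chow, and the labels name no treatment. Each root array held RNA pooled from 6 mice and each 129 arch array RNA pooled from 5 mice, so the p-values measure the spread between pools. The series text calls the strains apoE strains and wild type in the same sentence, and the root samples are called arch in a description field but root in title and tissue. The study mapped loci for plaque at the root, and no source used here states a purpose for setting root against arch.

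The aortic root is the first segment of the aorta, where it leaves the left ventricle. It holds the valve leaflets, their fibrous attachment ring and the sinuses behind them, and it borders heart muscle. The arch is an elastic artery that carries the great vessels of the neck, and in mice its outer coat adjoins perivascular fat with many brown adipocytes, the heat-producing fat cells. Because bulk tissue was measured, fewer cells of a type and less RNA per cell cannot be told apart in any value given here. Values are log2 signals of an array cluster, a group of probes for 1 transcript, and no detection calls were used here. Where a gene lay at or below the array medians of 4.72 to 4.82, its signal cannot be told apart from background.

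Genes of the aortic wall were present in both regions. Acta2, the smooth muscle actin, averaged 13.28 ± 0.03 in root and 13.29 ± 0.05 in arch (SD, n = 3 each), with a 95% interval of the difference from -0.20 to 0.18. Myh11, the smooth muscle myosin heavy chain, averaged 12.93 ± 0.02 in root and 12.88 ± 0.05 in arch, and Pecam1, an endothelial adhesion molecule, 10.96 ± 0.06 in root and 10.99 ± 0.06 in arch (SD, n = 3 each). These genes show vascular tissue and cannot tell which arrays are root and which arch. The list of valve and endocardial genes, which the root is known to hold, averaged 9.16 to 9.24 on the arrays titled root and 7.48 to 7.60 on the 129 arch arrays. Of the arch arrays of the other strains, DBA arch replicate 2 and B6 arch replicate 1 stood apart from their own groups in several lists. Arrays of the same region correlated across genes at 0.993 to 0.994 within root and 0.991 to 0.992 within arch, against 0.972 to 0.976 between the regions. Genes are not independent replicates, so these correlations describe the arrays only.

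Of the 22180 genes, 3508 differed between root and arch (15.8%, limma with Benjamini-Hochberg adjustment over all genes, adjusted p under 0.05), of which 1855 were higher in the root (8.36%) and 1653 lower (7.45%). The median difference over all genes was 0 on the log2 scale. The 3 root and 3 arch arrays did not overlap for 7930 genes (35.8%), among them all 3508 genes that passed. At least 2-fold differences were found for 601 of the higher and 533 of the lower genes, and at least 8-fold differences for 43 and 39. The 3 root arrays lay outside the range of all 9 arch arrays of the 3 strains for 2536 genes (11.4%), and 1009 of the 1855 higher genes lay above all 9 and 645 of the 1653 lower genes below all 9. The counts of the gene lists below are to be read against these shares. Some lists share genes, such as Hapln1 and Sox9 in the valve and cartilage lists, so their counts are not independent. Of the 12 genes with the largest rises, Nppa, Myl3, Mybpc3, Nppb, Ckmt2, Pln, Tnnc1 and Tnni3 are made in heart muscle and Clec3a and Ucma in cartilage. Of those with the largest falls, Ucp1, Elovl3, Otop1 and Cidea are known from brown fat.

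**Figure D1:**
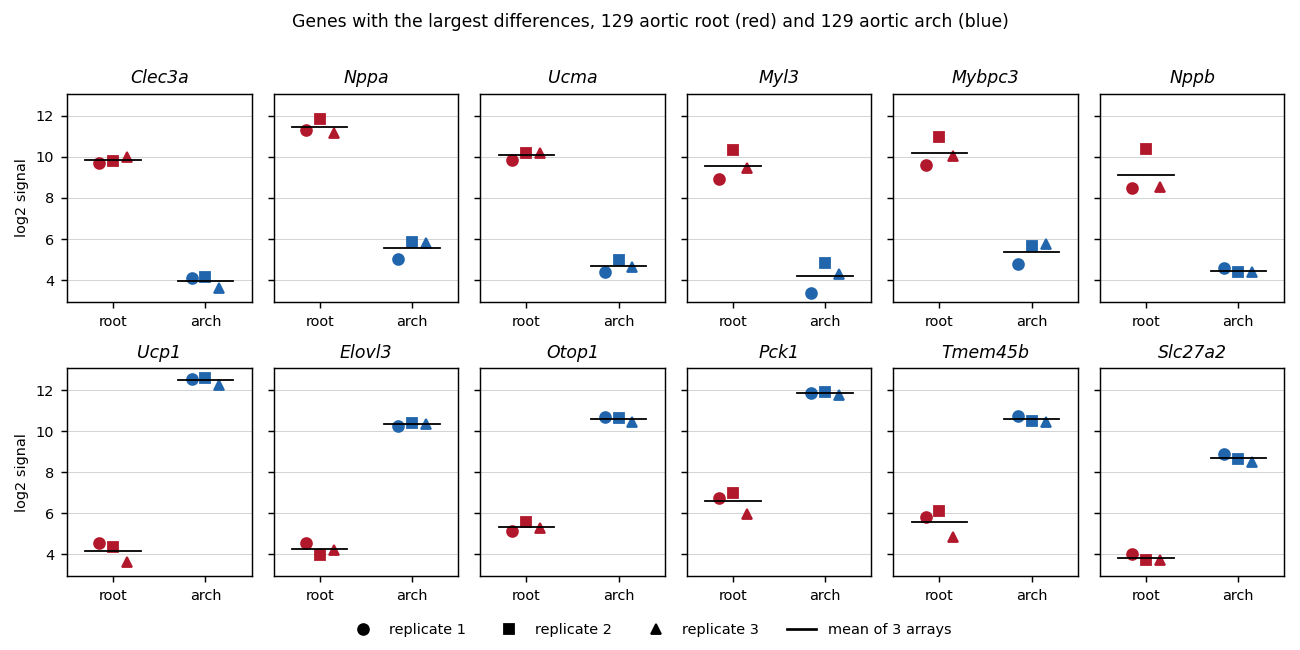
Log2 signal (y axis) of the 6 genes with the largest rises (top row) and the 6 with the largest falls (bottom row) on each of the 3 root arrays (red, left) and 3 arch arrays (blue, right) of 129 mice. Symbols mark replicate numbers and bars the mean of 3 arrays. Root and arch do not overlap in any panel, and Ucp1 averaged 4.19 in root and 12.47 in arch.

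Clec3a and Ucma, genes of cartilage, and Nppa, the atrial natriuretic peptide, had the largest rises. Clec3a, a C-type lectin of cartilage matrix, had log2 values of 9.70, 9.78 and 10.01 in root, against 4.11, 4.15 and 3.60 in arch (58.9-fold, difference 5.88, 95% interval 5.48 to 6.28, adjusted p = 8.18e-06). Nppa, a hormone of heart muscle cells that lowers blood pressure, had 11.31, 11.86 and 11.17 in root and 5.02, 5.88 and 5.81 in arch (58.8-fold, adjusted p = 4.45e-05), and read 12.86 on DBA arch replicate 2. Ucma, a vitamin K-dependent matrix protein of cartilage, had 9.86, 10.21 and 10.18 in root and 4.40, 4.96 and 4.63 in arch (42.8-fold, adjusted p = 9.38e-06). Every root array stood above every 129 arch array in all 3 genes. The arch values of Clec3a and Ucma lay near the array medians, so their folds rest on a dim arch signal.

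Genes of heart muscle contraction were higher in the root. Of 24 measured genes of the cardiac sarcomere, the contractile unit of heart muscle, 19 rose and none fell, with a median difference of 2.56, against 0 over all genes. Myl3, the ventricular essential myosin light chain, had 8.94, 10.32 and 9.48 in root and 3.40, 4.86 and 4.30 in arch (42.1-fold, adjusted p = 0.000409). Mybpc3, the cardiac myosin-binding protein C, had 9.59, 10.95 and 10.06 in root and 4.78, 5.65 and 5.74 in arch (28.1-fold, adjusted p = 0.000372). Tnni3 and Tnnc1, the cardiac troponins I and C, rose 16.1-fold and 16.7-fold, and Ttn, the giant spring protein titin, 15.8-fold. Replicate 2 of the root was the highest of the 3 root arrays in 19 of the 24 sarcomere genes. Myh6, the alpha myosin heavy chain that dominates the adult mouse heart, had 10.94, 11.98 and 11.21 in root and 7.23, 7.83 and 8.19 in arch (12.3-fold, adjusted p = 0.000566).

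The sarcomere genes did not separate root from every arch array. Over the list, the mean level per array was 9.12 to 9.66 in root and 6.51 to 7.09 in 129 arch. It was 5.83 to 6.20 on 5 of the 6 arch arrays of the other strains and 10.01 on DBA arch replicate 2. Of the 24 genes, 4 lay above all 9 arch arrays on the 3 root arrays, and 18 did when DBA arch replicate 2 was left out, a choice made after seeing the values. When all 12 arrays shared 1 estimate of the spread, 6 of the 24 rose, and 18 rose with DBA arch replicate 2 left out of that fit. Leaving out any 1 of the 6 arrays of 129 mice left the count at 19.

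Genes typical of one heart chamber were counted separately. Of 7 ventricular genes, 5 rose, with a median of 1.70. Myl2, the ventricular regulatory light chain, had 6.06, 6.74 and 6.74 in root and 4.71, 4.84 and 4.90 in arch (3.25-fold, adjusted p = 0.00145), and lay above all 9 arch arrays. Kcnip2, a potassium channel subunit, rose 4.03-fold. The transcription factor Irx4 averaged 5.70 ± 0.66 in root and 4.37 ± 0.16 in arch (SD, n = 3 each, adjusted p = 0.0273), and did not pass in 5 of the 6 fits with 1 array fewer (adjusted p up to 0.0898). Of 9 atrial genes, 2 rose and 1 fell (2 fell without arch replicate 2). Besides Nppa, these were Dkk3, a secreted Wnt antagonist (0.73), and Kcna5, a potassium channel that fell by 0.55. Myl7, the atrial regulatory light chain, had 9.72, 6.97 and 7.81 in root, against 7.30, 8.13 and 8.37 in arch, and the groups overlapped (difference 0.23, 95% interval -1.35 to 1.82, adjusted p = 0.855). Sln, the atrial calcium pump inhibitor sarcolipin, had 9.08, 6.05 and 7.07 in root and 6.54, 7.18 and 7.33 in arch (adjusted p = 0.769). Root replicate 1 was highest of the root arrays in both genes.

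**Figure D2:**
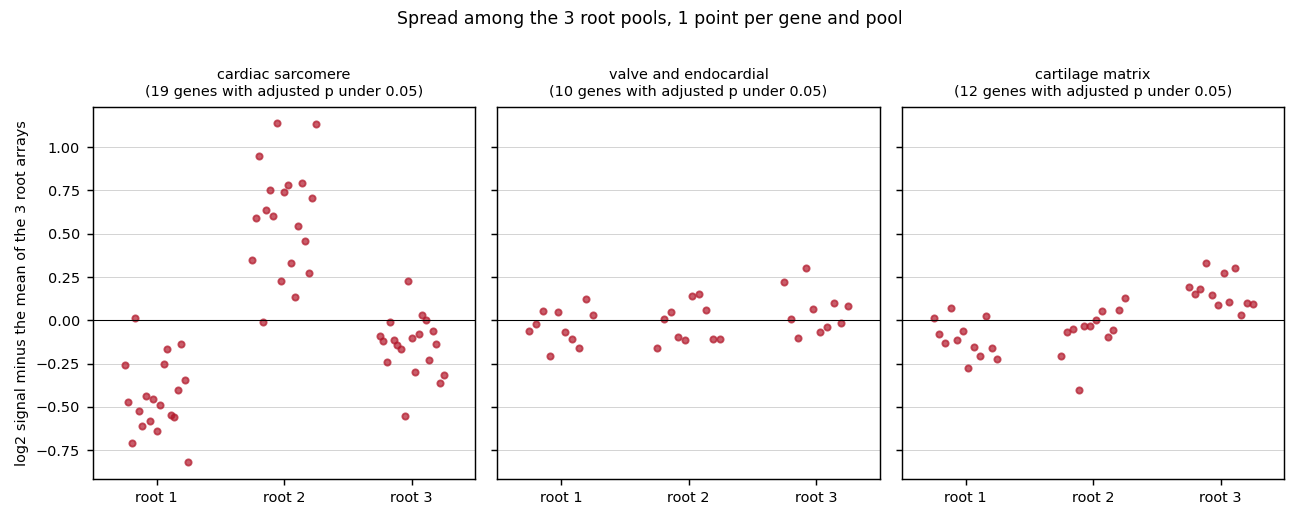
Log2 signal of each gene minus its mean over the 3 root arrays (y axis) for root replicates 1, 2 and 3 (x axis), with 1 point per gene and pool, for the genes that passed in 3 lists. The 19 sarcomere genes stood mostly highest in replicate 2, and the 10 valve and 12 cartilage genes spread less.

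Calcium handling and energy transfer serve contraction in heart muscle. Of 16 calcium handling genes 6 rose and none fell (median 0.35). Pln, the calcium pump inhibitor phospholamban, had 11.31, 11.87 and 11.43 in root and 6.96, 7.76 and 7.33 in arch (18.2-fold, adjusted p = 8.64e-05), and lay above all 9 arch arrays. Trdn and Casq2, the junctional proteins triadin and calsequestrin, rose 7.43-fold and 6.84-fold, and the release channel Ryr2 rose 2.69-fold. Atp2a2, the calcium pump itself, averaged 12.42 ± 0.15 in root and 12.05 ± 0.05 in arch and did not pass (SD, n = 3 each, 95% interval of the difference 0.12 to 0.61, adjusted p = 0.0592). Among 14 genes that buffer energy in muscle 8 rose and 1 fell, and the count that fell was 2 without root replicate 2 and 0 without any other single array. With all 12 arrays in 1 fit, 3 of the calcium handling genes and 3 of these 14 rose, and 7 and 8 did with DBA arch replicate 2 left out. Ckmt2, the sarcomeric mitochondrial creatine kinase, had 9.07, 10.41 and 9.24 in root and 4.39, 5.34 and 5.77 in arch (21.3-fold, adjusted p = 0.000947). Mb, the oxygen store myoglobin, rose 15.6-fold. Of 16 skeletal muscle genes 1 rose, Acta1, which heart muscle also makes (12.9-fold), and the 15 others, with the fast myosins Myh1, Myh2 and Myh4 among them, did not pass, but 1 of them fell without root replicate 2.

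Of 7 natriuretic peptide and receptor genes, 5 rose and none fell. Nppb, the brain natriuretic peptide of heart muscle, had 8.49, 10.39 and 8.55 in root and 4.57, 4.40 and 4.39 in arch (25.8-fold, adjusted p = 0.000947). Corin, the protease that cuts the Nppa precursor, rose 12.6-fold, and Nppc, the C-type peptide, 2.62-fold, and both lay above all 9 arch arrays. Npr2, the receptor of the C-type peptide, differed by 0.39, and did not pass in any of the 6 fits with 1 array fewer (adjusted p up to 0.0883). Npr3, the clearance receptor, averaged 9.64 ± 0.14 in root and 9.62 ± 0.08 in arch, with a 95% interval of the difference from -0.23 to 0.27 (SD, n = 3 each, adjusted p = 0.914).

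Promoter windows of some leading heart and fat genes are given to show which short motifs stood near the start sites. The windows come from RefSeq (build GRCm38.p6), run from 250 bases before to 50 bases after an annotated start, and were matched to 16990 of the 22180 genes by symbol. Each is printed 5′ to 3′ on the strand of the gene, with matches on either strand in capitals. The motifs searched were GATAA (the core bound by GATA factors), AGGTCA (a core of nuclear receptor sites), TATAAA (the TATA box), ACAATG (a core bound by SOX factors), and the MEF2 motif and the CArG box of muscle genes, both of which can overlap TATAAA. Nppa and Myl3 had the largest rises of the heart muscle genes, and Ucp1 and Pck1 were among the largest falls. In order, they lay at chr4:148000472-148000771 (+), chr9:110763428-110763727 (+), chr8:83290098-83290397 (+) and chr2:173152823-173153122 (+).
Nppa: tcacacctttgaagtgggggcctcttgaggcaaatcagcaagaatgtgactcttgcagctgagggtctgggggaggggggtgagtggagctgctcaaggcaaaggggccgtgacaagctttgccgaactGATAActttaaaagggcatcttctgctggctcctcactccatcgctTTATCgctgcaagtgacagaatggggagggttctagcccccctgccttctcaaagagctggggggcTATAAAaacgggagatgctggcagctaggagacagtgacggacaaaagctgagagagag
Myl3: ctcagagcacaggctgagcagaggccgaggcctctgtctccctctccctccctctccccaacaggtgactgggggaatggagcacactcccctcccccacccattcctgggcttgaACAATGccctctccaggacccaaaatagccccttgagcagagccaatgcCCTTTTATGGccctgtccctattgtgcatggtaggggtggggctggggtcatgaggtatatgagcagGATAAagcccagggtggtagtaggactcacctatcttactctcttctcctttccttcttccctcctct
Ucp1: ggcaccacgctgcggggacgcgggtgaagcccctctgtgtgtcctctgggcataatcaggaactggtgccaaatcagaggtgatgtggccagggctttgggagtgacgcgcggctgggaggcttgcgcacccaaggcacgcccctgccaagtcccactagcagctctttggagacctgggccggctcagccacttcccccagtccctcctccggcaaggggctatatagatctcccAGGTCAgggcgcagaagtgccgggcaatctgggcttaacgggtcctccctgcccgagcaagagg
Pck1: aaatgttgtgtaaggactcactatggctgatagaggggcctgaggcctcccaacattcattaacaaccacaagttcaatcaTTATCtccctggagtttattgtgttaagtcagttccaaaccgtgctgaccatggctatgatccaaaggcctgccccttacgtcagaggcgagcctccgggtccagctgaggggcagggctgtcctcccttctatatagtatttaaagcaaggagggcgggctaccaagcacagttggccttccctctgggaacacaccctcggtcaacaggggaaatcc
The Nppa window held GATAA, its reverse complement and TATAAA, and that of Myl3 held GATAA, a CArG box and ACAATG. The Ucp1 window held AGGTCA, and that of Pck1 GATAA on the other strand. The windows of Otop1, a brown fat gene that fell slightly more than Pck1, and of the cartilage gene Ucma held no match. They are not printed, so the printed windows do not show how common matches were. Of the 19 sarcomere genes that rose 17 had a window. A CArG box was found in 4 of them (23.5%, Actc1, Ldb3, Myl3 and Nebl), against 1.67% of all genes with a window, and a MEF2 motif in 4 (23.5%, Mybpc3, Myoz2, Ttn and Xirp2), against 1.98%. GATAA was found in 7 of the 17 (41.2%), against 25.4% of all genes, and ACAATG in 6 (35.3%), against 12.3%. AGGTCA was found in 4 (23.5%), against 16.4%, and TATAAA in 3 (17.6%), against 14.3%. Of the 14 adipocyte genes that fell and had a window, 2 held AGGTCA (14.3%), against 16.4% of all genes. Of the 18 fatty acid oxidation genes that passed and had a window, 5 held AGGTCA (27.8%). A match is a run of letters and does not show binding.

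Several transcription factors of heart formation rose. Of 26 measured, 11 rose and none fell, with a median of 0.32. With 1 array left out 9 to 10 rose, and 8 rose with all 12 arrays in 1 fit. Gata4, a zinc finger factor of heart muscle and valve formation, had 8.66, 9.0 and 8.56 in root and 5.06, 5.58 and 5.36 in arch (10.6-fold, adjusted p = 5.75e-05). Tbx20, a T-box factor of chambers and valves, had 10.74, 10.70 and 10.71 in root and 7.66, 7.64 and 7.48 in arch (8.73-fold, adjusted p = 7.61e-06). Gata5, a factor of the endocardium, rose 5.20-fold and Hand2, a factor of the outflow tract, 4.31-fold. These 4 genes lay above all 9 arch arrays. Nkx2-5, an early factor of heart muscle, had 6.64, 7.57 and 7.05 in root and 5.17, 5.78 and 5.77 in arch (2.86-fold, adjusted p = 0.00933), and DBA arch replicate 2 read 7.09. Isl1, a factor of the second heart field, differed by 0.75, and Gata6, Mef2c and Myocd, present in smooth muscle too, did not pass.

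Valve genes rose, with a median SD among the root pools of 0.12, against 0.57 for the sarcomere list. Of 15 measured genes of valve leaflets and endocardium, 10 rose and none fell (median 1.5), and 9 lay above all 9 arch arrays. Ptn, the heparin-binding growth factor pleiotrophin, had 8.63, 8.89 and 8.70 in root and 4.90, 4.81 and 5.08 in arch (14-fold, adjusted p = 8.18e-06). Prg4, the lubricating proteoglycan 4, had 10.95, 11.16 and 10.95 in root and 7.56, 7.58 and 7.47 in arch (11.2-fold, adjusted p = 7.61e-06). Cldn11, a tight junction claudin, rose 8.34-fold, Hapln1, the link protein that holds hyaluronan to proteoglycans, 7.38-fold, and Wif1, a secreted Wnt inhibitor, 5.88-fold. Nfatc1, the transcription factor of the valve endocardium, averaged 8.79 ± 0.10 in root and 8.12 ± 0.14 in arch (SD, n = 3 each, adjusted p = 0.00598). Postn, the matricellular protein periostin, averaged 12.50 ± 0.06 in root and 12.42 ± 0.02 in arch (SD, n = 3 each, adjusted p = 0.542). Twist1 and Scx, factors of the valve interstitium and of tendon, did not pass either.

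Cartilage genes were also higher in the root. Of 22 measured genes, 12 rose and none fell (median 0.53), and 11 lay above all 9 arch arrays. Sox9, the master transcription factor of cartilage, had 9.06, 9.28 and 9.32 in root and 6.86, 6.87 and 6.69 in arch (5.32-fold, adjusted p = 4.12e-05). Chad, the leucine-rich protein chondroadherin, rose 10.7-fold, Epyc, the proteoglycan epiphycan, 7.99-fold, and Comp, the cartilage oligomeric matrix protein, 4.22-fold. Acan, the large proteoglycan aggrecan, had 7.05, 6.83 and 7.23 in root and 5.99, 6.00 and 5.69 in arch (2.20-fold, adjusted p = 0.00203), and read 8.88 on B6 arch replicate 1. Col2a1, the chief collagen of hyaline cartilage, averaged 5.38 ± 0.13 in root and 5.06 ± 0.20 in arch and did not pass (SD, n = 3 each, 95% interval of the difference 0.01 to 0.63, adjusted p = 0.159). The 3 chains of collagen IX and the matrilins Matn1 and Matn3 did not pass. Root replicate 3 was the highest of the root arrays in 17 of the 22 genes. Of 7 measured mineralisation genes 2 rose (1 with all 12 arrays in 1 fit), among them Tnfrsf11b, the decoy receptor osteoprotegerin (0.75).

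**Figure D3:**
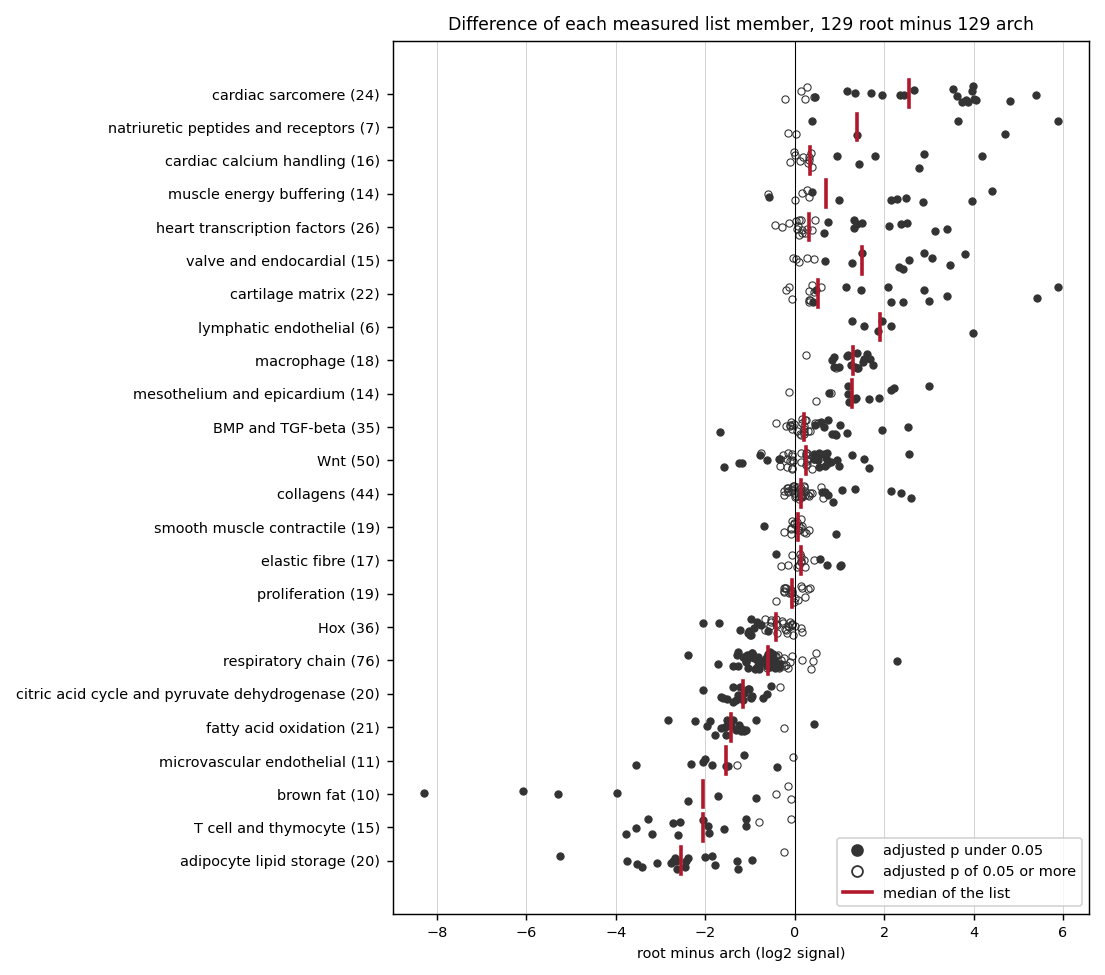
Root minus arch difference on the log2 scale (x axis) of each measured member of 24 gene lists (y axis, number measured in brackets). Filled points had adjusted p under 0.05, open points did not, and red bars mark list medians, which were 2.56 for the cardiac sarcomere and -2.55 for adipocyte lipid storage.

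Collagens and proteoglycans give the wall its tensile strength. Of 44 collagen genes 9 rose and none fell, with a median of 0.14, where 8.36% of all genes rose and 7.45% fell. Col6a5, a chain of collagen VI, had 6.96, 7.02 and 6.91 in root and 4.32, 4.50 and 4.24 in arch (6.11-fold, adjusted p = 2.34e-05). Col8a1, a short-chain collagen of vessels, rose 5.21-fold and Col11a1, a fibril-nucleating chain, 4.48-fold, while Col1a1 and Col3a1, the bulk fibrillar collagens, did not pass (0.01 and 0.13). Of 29 small proteoglycans and matricellular genes 8 rose and 1 fell, a fall that did not pass in any of the 6 fits with 1 array fewer. Thbs4, the matricellular thrombospondin 4, had 9.51, 9.68 and 9.77 in root and 6.17, 4.93 and 5.62 in arch (16.9-fold, adjusted p = 0.000219), Thbs1 rose 3.14-fold, and Lum, the collagen-binding lumican, 2.89-fold. Of 17 elastic fibre genes 4 rose and 1 fell. Fbln1, the elastin-binding fibulin 1, rose 2.02-fold. Eln, elastin itself, had 11.51, 11.54 and 11.44 in root and 11.92, 11.78 and 12.08 in arch (adjusted p = 0.0305), but did not pass in 5 of the 6 fits with 1 array fewer (adjusted p up to 0.109).

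Of 19 contractile genes of smooth muscle 1 rose and 1 fell (median 0.07). Des, the intermediate filament desmin that heart muscle also makes, averaged 11.43 ± 0.16 in root and 10.50 ± 0.12 in arch (SD, n = 3 each, adjusted p = 0.00208). Actg2, the enteric smooth muscle actin, averaged 10.04 ± 0.07 in root and 10.73 ± 0.11 in arch (SD, n = 3 each, adjusted p = 0.00357). Myl9, the smooth muscle regulatory light chain, averaged 12.22 ± 0.06 in root and 12.28 ± 0.09 in arch (SD, n = 3 each, adjusted p = 0.702). Among 14 fibroblast and adventitial genes 7 rose and 1 fell (2 fell without arch replicate 2). Tcf21, a factor of fibroblast and epicardial cells, had 8.41, 9.0 and 8.72 in root and 5.81, 5.88 and 5.42 in arch (8.05-fold, adjusted p = 0.000136), and Scara5, a ferritin receptor of adventitial fibroblasts, fell by 1.21.

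Endothelial genes were counted by vessel type. Of 16 pan-endothelial genes 6 rose and 3 fell, counts that ranged from 3 to 5 and from 1 to 2 when 1 array was left out. The count that rose was 3 without root replicate 2 or 3 or arch replicate 3, and the count that fell was 1 without root replicate 1 or arch replicate 2. Cdh5, the vascular cadherin, averaged 10.96 ± 0.17 in root and 11.24 ± 0.09 in arch and did not pass (SD, n = 3 each, adjusted p = 0.157). Emcn, the sialoglycoprotein endomucin, rose 3.56-fold and Nos3, the endothelial nitric oxide synthase, 1.82-fold. All 6 lymphatic genes rose (median 1.91). Prox1, the master factor of lymphatic endothelium, had 8.20, 8.33 and 8.31 in root and 4.03, 4.51 and 4.34 in arch (15.9-fold, adjusted p = 1.25e-05), and read 7.63 on DBA arch replicate 2. Prox1 is also made in heart muscle. Flt4, the receptor of lymphatic growth factors, rose 3.89-fold, Mmrn1, a multimerin of lymphatic vessels, 4.45-fold, and Lyve1, the hyaluronan receptor, 2.92-fold. Of 11 genes of small blood vessels none rose and 9 fell (median -1.53), and 6 fell with all 12 arrays in 1 fit. The list averaged 7.23 to 7.87 in root and 8.89 to 9.22 in 129 arch, but 7.42 on B6 arch replicate 1, within the root range, and 2 of the 11 genes lay below all 9 arch arrays. Car4, a carbonic anhydrase of capillaries, had 4.66, 5.54 and 4.66 in root and 8.62, 8.56 and 8.36 in arch (11.8-fold lower in root, adjusted p = 0.000204). Gpihbp1, the capillary anchor of lipoprotein lipase, had a 4.17-fold lower signal in root, and Fabp4 and Cd36, fatty acid carriers of capillaries and of fat cells, had 3.99-fold and 2.90-fold lower signals.

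The 3 largest falls of all genes tested were in the brown fat list. Of 10 measured brown fat genes none rose and 7 fell (median -2.05). Ucp1, the uncoupling protein that makes heat in brown adipocytes, had 4.58, 4.38 and 3.63 in root, against 12.55, 12.60 and 12.26 in arch (310-fold lower in root, difference -8.28, 95% interval -8.86 to -7.69, adjusted p = 8.18e-06). Elovl3, a fatty acid elongase induced by cold, had 4.58, 3.99 and 4.20 in root and 10.25, 10.39 and 10.35 in arch (67.4-fold lower, adjusted p = 7.61e-06). Otop1, a proton channel, had 5.12, 5.58 and 5.27 in root and 10.71, 10.66 and 10.46 in arch (39.1-fold lower, adjusted p = 7.61e-06). The root signal of Ucp1 and Elovl3 was at or below the array medians. Prdm16, a factor of brown fat fate, averaged 9.22 ± 0.10 in root and 9.30 ± 0.07 in arch (SD, n = 3 each, adjusted p = 0.624), and Ppargc1a, the coactivator of mitochondrial biogenesis, did not pass (-0.43, adjusted p = 0.0533).

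White and brown adipocytes share genes of lipid storage, and of 20 measured 19 fell and none rose (median -2.55). Pck1, an enzyme of a path that leads to glycerol phosphate for triglyceride, had 6.77, 7.01 and 5.98 in root and 11.86, 11.89 and 11.76 in arch (38.1-fold lower, adjusted p = 5.03e-05). Pparg, the master factor of fat cells, had 7.66, 7.86 and 7.41 in root and 10.91, 10.84 and 10.47 in arch (8.53-fold lower, adjusted p = 6.98e-05). Adipoq and Lep, the hormones adiponectin and leptin, fell by 2.72 and 2.66, and Plin1, which coats the lipid droplet, by 3.53. Of the other genes with the largest falls, Slc27a2, a fatty acyl-CoA synthetase, fell by 4.86, Gys2, a glycogen synthase, by 4.22, and Pnpla3, a lipid droplet acyltransferase and lipase, by 4.20. The fall of Slc27a2 depended on the cluster kept, and its difference was -2.61 with the mean of the clusters of the gene. Tmem45b, a membrane protein, had 5.83, 6.12 and 4.83 in root and 10.76, 10.52 and 10.45 in arch (31.6-fold lower, adjusted p = 0.000144), and Slc36a2, an amino acid carrier, fell by 4.13. Across arrays the mean of the brown fat list was 6.84 to 7.14 in root and 9.81 to 9.90 in 129 arch, and 8.06 to 10.20 in the arch of the other strains, where B6 arch replicate 1 was lowest.

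**Figure D4:**
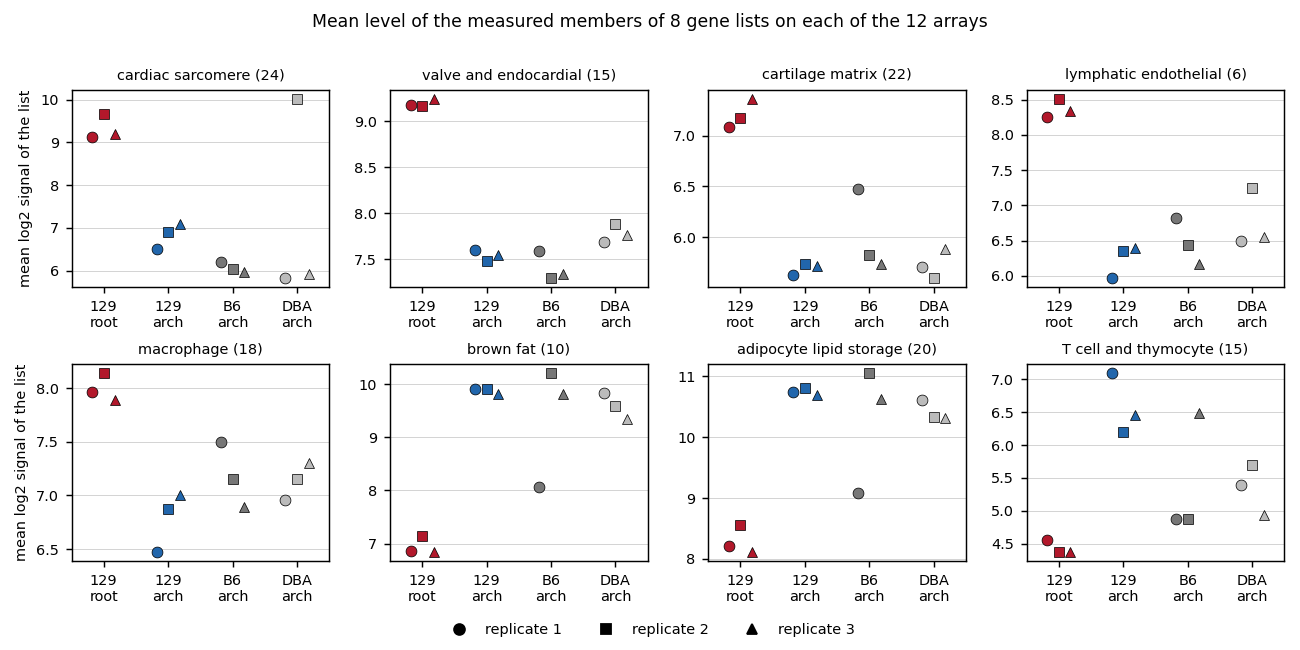
Mean log2 signal (y axis) of the measured members of 8 gene lists on each of the 12 arrays, with the 129 root at the left, then the arch of 129, B6 and DBA mice. DBA arch replicate 2 read 10.01 for the sarcomere list and B6 arch replicate 1 read 8.06 for brown fat, and both stood apart from the arch arrays of their own strains.

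Genes of mitochondrial fuel use were lower in the root than in the 129 arch. Of 20 genes of the citric acid cycle and pyruvate dehydrogenase, below called the cycle genes, 19 fell (median -1.15). In fatty acid oxidation 19 of 21 fell and 1 rose (median -1.42), a rise that did not pass without root replicate 1 or 2. These lists did not separate root from every arch array. The cycle genes averaged 9.56 to 9.87 in root and 10.71 to 10.89 in 129 arch, but 9.54 on B6 arch replicate 1, and 1 of the 20 lay below all 9 arch arrays. The oxidation genes averaged 8.84 to 9.22 in root and 10.21 to 10.45 in 129 arch, but 9.05 on B6 arch replicate 1, and 4 of the 21 lay below all 9. Suclg1, a succinyl-CoA ligase subunit, averaged 6.83 ± 0.22 in root and 8.89 ± 0.20 in arch (SD, n = 3 each, adjusted p = 0.000248). Acadvl, which starts the oxidation of long chains, averaged 8.77 ± 0.30 in root and 10.73 ± 0.15 in arch (SD, n = 3 each, adjusted p = 0.00044). With all 12 arrays but DBA arch replicate 2 in 1 fit, 8 of the 20 cycle genes fell. Of 76 respiratory chain genes 52 fell and 1 rose (median -0.60). The count that fell was 33 without 129 arch replicate 1, 34 without root replicate 3 or arch replicate 2, 15 with all 12 arrays in 1 fit and 11 with DBA arch replicate 2 left out of that fit. The list averaged 8.69 to 9.03 in root and 9.36 to 9.51 in 129 arch, but 8.66 on B6 arch replicate 1, below every root array, and 10 of the 76 genes lay below all 9 arch arrays. The gene that rose was Cox6a2, the cytochrome oxidase subunit of heart and skeletal muscle, with 7.60, 8.83 and 7.95 in root and 5.46, 5.98 and 6.07 in arch (4.88-fold, adjusted p = 0.00359). Cox8b, a subunit of brown fat and muscle, fell by 2.39. Root replicate 2 was the highest root array in 67 of the 76 genes. Of 17 glycolytic genes 3 rose and 6 fell, among them Eno3, the muscle enolase, which rose 5.61-fold, and Pfkl and Hk2, a phosphofructokinase and a hexokinase, which fell by 1.55 and 1.30. The count that fell was 3 without root replicate 1 or 3 or arch replicate 2, and 1 with all 12 arrays in 1 fit.

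Immune cells of the wall and its surroundings were followed by their markers. Of 18 macrophage genes 16 rose and none fell (median 1.30), and 12 lay above all 9 arch arrays. With 1 array left out, 13 to 15 rose. Csf1r, the receptor of the macrophage growth factor, had 9.73, 9.79 and 9.79 in root and 7.83, 8.18 and 8.45 in arch (3.06-fold, adjusted p = 0.000758). Mrc1, the mannose receptor of resident macrophages, rose 3.33-fold, C1qb, a complement subunit, 3.20-fold, and Cd68, a lysosomal protein, 2.89-fold. Ccr2, a receptor of recruited monocytes, averaged 5.81 ± 0.45 in root and 5.57 ± 0.28 in arch (SD, n = 3 each, adjusted p = 0.555). Of 15 T cell and thymocyte genes none rose and 13 fell (median -2.05). Cd8b1, a coreceptor chain, had 4.46, 4.40 and 4.38 in root and 8.88, 7.94 and 7.76 in arch (13.7-fold lower, adjusted p = 0.000249). Dntt, a DNA polymerase of immature lymphocytes, had 3.67, 3.15 and 3.06 in root and 7.39, 6.15 and 6.95 in arch (11.6-fold lower, adjusted p = 0.000575), and Cd3e, which carries the signal of the T cell receptor, fell by 2.05. Arch replicate 1 was the highest 129 arch array in this list, with a mean level of 7.09, and the list ranged from 4.87 to 6.49 in the arch of the other strains and from 4.37 to 4.55 in root. The 6 thymic epithelial genes, Foxn1 and Prss16 among them, did not pass in limma (0 at an unadjusted p under 0.05, and 0 in each other setting) and had a mean level of 4.53 to 4.57 in root and 4.58 to 4.77 in 129 arch. The part of thymocytes in the T cell values was not tested. Of 7 B cell genes 4 fell, 2 without root replicate 1 or 3, among them Cd79b, a chain of the B cell receptor, which fell by 1.21. The B cell list averaged 3.96 to 4.09 in root and 4.37 to 4.67 in 129 arch, both below the array medians.

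Adhesion molecules and chemokines, through which leukocytes enter the wall, were measured for 21 genes, of which 10 rose and 4 fell. Vcam1, a ligand of monocyte integrins, had 11.03, 10.80 and 10.94 in root and 9.26, 9.42 and 9.46 in arch (2.91-fold, adjusted p = 0.000181). Sele, the endothelial E-selectin, had 6.94, 6.22 and 6.25 in root and 5.53, 5.49 and 5.47 in arch (1.96-fold, adjusted p = 0.0161), whereas Selp, the P-selectin, averaged 7.70 ± 0.21 in root and 7.79 ± 0.25 in arch (SD, n = 3 each, adjusted p = 0.755). Ccl2, the monocyte chemokine, rose 3.88-fold. Cxcl9, an interferon-induced chemokine of T cells, had 4.40, 4.20 and 4.57 in root and 8.46, 8.53 and 7.92 in arch (15.1-fold lower, adjusted p = 4.65e-05). Of 17 lipoprotein uptake and efflux genes 5 rose and 5 fell. The scavenger receptors Msr1 and Olr1 rose 2.93-fold and 2.67-fold and Apoe, the apolipoprotein of remnant clearance, 1.85-fold, while Scarb1, the receptor of high-density lipoprotein, fell by 1.09. With all 12 arrays in 1 fit, 2 of the 17 fell. Of 13 genes that respond to shear in endothelium 8 rose, a count of 4 without any 1 root array or without arch replicate 1, and of 5 without arch replicate 2. Klf4, a flow-induced factor, averaged 8.40 ± 0.12 in root and 7.81 ± 0.26 in arch (SD, n = 3 each, adjusted p = 0.0333), and did not pass in 5 of the 6 fits with 1 array fewer (adjusted p up to 0.114).

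Signalling pathways of valve and outflow formation were followed by their members. Among 35 genes of the BMP and TGF-beta pathways 11 rose and 1 fell (2 fell without arch replicate 1), and 13 lay above all 9 arch arrays. Bmp5, a bone morphogenetic ligand, had 6.90, 6.50 and 6.51 in root and 4.34, 4.22 and 3.74 in arch (5.81-fold, adjusted p = 0.000263). The ligands Bmp2 and Bmp4 rose 2.24-fold and 1.85-fold, Bmper, an extracellular modulator, 3.86-fold, and the inhibitory Smad6 1.58-fold. The antagonist Grem1 had 3.13, 2.99 and 3.34 in root and 5.19, 4.58 and 4.69 in arch (3.18-fold lower, adjusted p = 0.00113). Its root values and the arch values of 4.58 and 4.69 lay below the array medians, so the signal was dim in both regions. Among 50 Wnt genes 19 rose and 6 fell, a count of risers that was 12 without root replicate 3. The ligands Wnt9b and Wnt4 rose 3.18-fold and 2.92-fold, the agonist Rspo1 2.41-fold, and the antagonist Sfrp4 fell by 1.25. In the Notch pathway 2 of 18 rose and 2 fell, where 8.36% of all genes rose and 7.45% fell. The count that fell was 1 without root replicate 1 or 2 and 3 without arch replicate 3. Notch1, the receptor whose loss affects valves, averaged 9.15 ± 0.03 in root and 8.29 ± 0.12 in arch, and Dll4, a ligand of capillary tips, averaged 6.65 ± 0.28 in root and 7.69 ± 0.19 in arch (SD, n = 3 each, adjusted p = 0.00122 and 0.00611).

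Hox genes encode homeobox factors that mark position along the body axis. Of 36 measured, 12 fell and none rose (median -0.41), and 10 lay below all 9 arch arrays. Hoxa5 had 5.80, 5.50 and 5.28 in root and 7.54, 7.80 and 7.37 in arch (4.12-fold lower, adjusted p = 0.000395). Hoxa4 had 6.48, 6.49 and 6.05 in root and 7.92, 8.10 and 8.08 in arch (3.23-fold lower, adjusted p = 0.000409). The genes that fell were in paralogous groups 2 to 9 of the Hoxa, Hoxb and Hoxc clusters, and Hoxa6, Hoxa9, Hoxb3 and Hoxc6 did not pass in 4 or 5 of the 6 fits with 1 array fewer. None of the Hoxd genes and none of groups 10 to 13 passed. The list averaged 4.11 to 4.16 in root and 4.64 to 4.70 in 129 arch, both below the array medians.

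**Figure D5:**
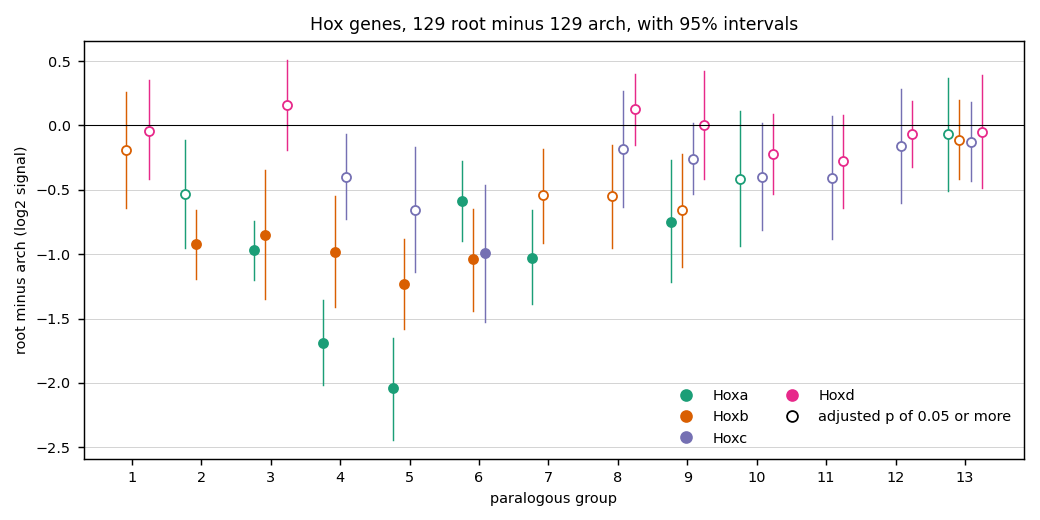
Root minus arch difference on the log2 scale (y axis) of 36 Hox genes by paralogous group (x axis), coloured by cluster, with 95% intervals as vertical lines. Filled points had adjusted p under 0.05, and Hoxa5 and Hoxa4 lay lowest at -2.04 and -1.69.

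Markers of the heart's outer lining, of nerve and of other organs were counted. Of 14 mesothelial and epicardial genes 11 rose and none fell (median 1.28), and 10 lay above all 9 arch arrays. Upk1b, a uroplakin of mesothelium, had 8.80, 8.40 and 8.44 in root and 5.79, 6.53 and 6.63 in arch (4.70-fold, adjusted p = 0.00106). Msln, the surface protein mesothelin, rose 4.45-fold, Upk3b 3.72-fold, and Wt1, an epicardial factor, 2.29-fold. Of 11 Schwann and myelin genes 4 rose and 1 fell, Mbp, the myelin basic protein, by 0.99, and the risers numbered 1 without root replicate 3 and 2 without root replicate 1 or arch replicate 3. Of 14 neuronal genes 1 rose and 1 fell, where 8.36% of all genes rose and 7.45% fell. In this list 2 rose without arch replicate 3, while none fell without root replicate 3 or arch replicate 2 or 3. Of 9 genes of other organs none rose and 3 fell, and 0 to 3 fell when 1 array was left out. The list averaged 3.90 to 4.04 in root and 4.26 to 4.54 in 129 arch. It averaged 5.90 on B6 arch replicate 1 and 6.22 on DBA arch replicate 2. Alb, the liver albumin, averaged 3.99 ± 0.40 in root and 5.74 ± 0.85 in arch (SD, n = 3 each, adjusted p = 0.0317), and did not pass in 3 of the 6 fits with 1 array fewer (adjusted p up to 0.0995). None of 19 proliferation genes passed in limma (3 at an unadjusted p under 0.05, 1 with a robust trended prior and 3 with the dimmer genes left out), and their median was -0.06.

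Candidate genes of the plaque loci that the study mapped were measured in both regions. Of 22 measured candidates of the chromosome 1 locus Ath44, 5 rose and 3 fell (1 fell with all 12 arrays in 1 fit). Hmcn1, the basement membrane protein hemicentin 1, had 6.55, 6.69 and 6.70 in root and 4.45, 4.20 and 4.18 in arch (5.17-fold, adjusted p = 4.16e-05). Npl, a lyase of sialic acid, had 6.89, 7.21 and 6.71 in root and 4.81, 5.49 and 5.56 in arch (3.14-fold, adjusted p = 0.00331). Of 14 candidates of the chromosome 2 locus Ath45, 1 rose and 1 fell, where 8.36% of all genes rose and 7.45% fell. None of these 14 fell without root replicate 1 or 2 or arch replicate 1 or 2. Lbp, the lipopolysaccharide-binding protein, had 9.87, 9.80 and 9.80 in root and 8.33, 8.74 and 8.70 in arch (2.35-fold, adjusted p = 0.000951), whereas Ada, the adenosine deaminase, averaged 7.26 ± 0.11 in root and 7.32 ± 0.21 in arch (SD, n = 3 each, adjusted p = 0.81). The study chose these candidates partly on these arrays, so their counts are not independent evidence.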

How the data were processed

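Log2 signals of Affymetrix Mouse Gene 2.1 ST arrays, as deposited by the authors in 1 table of 12 arrays, were used without further normalisation. Per the labels, 250 ng of pooled RNA was hybridised per array and Expression Console was used. For its version, the summarisation, the normalisation and the genome build, the sources used here give nothing. The values ran from 0.668 to 13.57, and the number of arrays limits their precision. Of 41345 clusters, 23521 had 1 gene symbol in the platform annotation, 1820 several and 16004 none. Where a gene had several clusters (1082 of 22180 genes), that of highest mean signal across the 12 arrays was kept. The gene IDs of 21994 genes were found in the RefSeq table.

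Root and arch of 129 mice were compared on their 6 arrays alone by the moderated test of limma (version 3.58.1, R version 4.3.3, two-sided), with Benjamini-Hochberg adjustment over all 22180 genes and a threshold of 0.05. Differences are root minus arch on the log2 scale, and folds are their antilogs. The scripts were tested on simulated data. The arch arrays of B6 and DBA mice were used only for position and for alternatives. Python 3.11.15 with pandas 2.3.3 was used for the lists and counts. The regions and the 47 gene lists were chosen with earlier results of these data known.

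Genes were named by rule: the 12 largest differences in each direction, up to 5 members with the largest differences that passed in each list, and a set of standing markers. Sln, Atp2a2, Myh1, Myh2, Myh4, Ldb3, Nebl, Myoz2, Xirp2, Isl1, Gata6, Mef2c, Myocd, Nfatc1, Twist1, Scx, Comp, Matn1, Matn3, Col1a1, Col3a1, Prdm16, Ppargc1a, Lep, Ccr2, Foxn1, Prss16, Scarb1, Bmp4, Smad6, Sfrp4, Wt1 and the Hox genes other than the 5 with the largest differences were named after their values were seen. The alternatives were other normalisations, priors, weights, filters, choices of cluster and arrays, each array left out, a replicate block, a 2-fold limit and the methods' Tukey-Kramer test. The methods give ages of mice and pool sizes that differ from the labels, and the labels were followed.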

Additional observations from a re-analysis of the deposited data

How the results depend on the processing

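The 3508 genes that differed between root and arch (1855 higher, 1653 lower) became 2212 when all 12 arrays shared 1 estimate of the spread (1269 higher, 943 lower), and 2272 when DBA arch replicate 2 was also left out, an alternative chosen after seeing the data (1387 higher, 885 lower). Requiring a 2-fold difference left 1134 (601 higher, 533 lower). The methods' Tukey-Kramer test gave 2877 unadjusted and 469 after Benjamini-Hochberg adjustment (347 higher, 122 lower). Leaving out 1 array gave 2273 to 2878 in all, 1180 to 1510 higher and 1093 to 1406 lower, with the lowest counts without root replicate 3. These fits have fewer arrays, and the cause of the other shifts was not tested. Centring each array on its median moved the median of all genes to -0.05 and the higher share to 45.0%, against 52.9% without it. The other normalisations, priors, weights, filters and choices of cluster gave 3080 to 4493.

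Among the named genes, 219 passed, of which 41 lost the call with all 12 arrays, 13 to 19 with 1 array left out, 10 with a replicate block and 156 in the adjusted Tukey-Kramer test, and none reversed in any setting run. Root and arch share replicate numbers. Deviations of same-numbered arrays correlated at 0.042, 0.044 and 0.054, which is too weak to pair them, although each array correlated best with its own number, and the fit with the replicate block gave 2812 (1466 higher, 1346 lower). Genes at or below the array medians of 4.72 to 4.82 carry folds that depend on an unknown background.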

Other observations

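Further genes outside the lists, chosen after their values were seen, also differed between the regions. Higher in the root were Ecrg4, a secreted precursor peptide (9.30, 9.46 and 9.50 in root, against 5.60, 5.37 and 5.83 in arch, 14.1-fold), and Nrg1, the growth factor neuregulin 1 that signals from endocardium to heart muscle (8.58, 8.35 and 8.74 in root, against 5.82, 5.98 and 5.60 in arch, 6.76-fold). Igfbp3, a carrier of insulin-like growth factors, rose by 2.50 and Penk, the enkephalin precursor, by 1.52. These 4 genes lay above all 9 arch arrays. Chrm2, the muscarinic receptor of the heart, rose 8.71-fold and did not lie above all 9.

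Lower in the root were genes of hormone response and glycerol handling in fat. Klb, the coreceptor of the hormone FGF21, had 4.39, 4.57 and 4.82 in root, against 8.43, 8.45 and 8.34 in arch (14.1-fold lower). Aqp7, the glycerol channel of adipocytes, fell by 3.88, and Gpd1, which makes glycerol phosphate, by 3.44. The corticotropin receptor Mc2r, its accessory protein Mrap and the melanocortin receptor Mc5r fell by 2.25, 2.46 and 2.06. Ppbp, a chemokine of platelets, had 8.53, 7.54 and 8.30 in root, against 9.80, 11.46 and 11.39 in arch.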
